A study of Mus musculus with 8 samples.

Results

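The 9 genes of chromosome 17 listed as neighbours of Daxx were followed in whole pancreas with and without floxed Daxx: Tapbp, Zbtb22, Rgl2, Wdr46, B3galt4, Vps52, Phf1, Cuta and Bak1. They were taken by name, and all 9 are among the 11789 genes of the deposited table. RNA was measured by strand-specific sequencing in 4 mice of genotype Daxxfl/flPdx1-CreTg, labelled DC, and 4 wild-type mice, labelled WT, all 6 weeks old. The design text gives 2 females and 2 males per genotype, so each library is taken as 1 animal. The Pdx1 promoter drives Cre in the embryonic epithelium that forms the acini, ducts and islets. By this design Daxx should stay intact in vessels, stroma and immune cells, but recombination was not measured by cell type. Neither transgenic nor floxed controls appear in the labels, nor the exons between the lox sites, so losing Daxx, carrying Cre and carrying a floxed chromosome cannot be told apart.

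Daxx encodes a histone chaperone that works with Atrx to place histone H3.3 at silent chromatin. It lies at the edge of the major histocompatibility region, a dense block of genes that in mouse begins with class I and antigen processing genes. Tapbp encodes tapasin, which holds class I molecules at the peptide transporter in the endoplasmic reticulum until a peptide is bound. The other listed genes serve unrelated processes.

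The listed genes form 2 separate blocks in mouse. By GENCODE M21 on GRCm38, 6 of the 9 lie directly to the right of Daxx (chr17:33909414-33915590, plus strand), and the last of them ends 51.4 kb beyond it. They run in the order Tapbp (chr17:33915899-33929292), Zbtb22 (chr17:33915904-33919325), Rgl2 (chr17:33929543-33937687), Wdr46 (chr17:33940660-33949697), B3galt4 (chr17:33949909-33951488) and Vps52 (chr17:33955812-33967035). B3galt4 is on the minus strand and the other 5 are on the plus strand with Daxx. The remaining 3 do not flank Daxx. Phf1 (chr17:26933052-26937908, plus), Cuta (chr17:26933819-26939569, minus) and Bak1 (chr17:27019810-27029009, minus) lie 6.88 to 6.97 Mb to its left, with 134 annotated protein-coding genes between Bak1 and Daxx. They are called the distant genes below, and the other 6 the adjacent genes.

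Some of these genes share ground, which bears on how reads are assigned. The annotated start of Tapbp is 309 bases after the end of Daxx, and the whole 3422-base span of Zbtb22 falls within that of Tapbp on the same strand. Of the 9 annotated Tapbp transcripts, 2 start at or near the Zbtb22 start and 7 start after Zbtb22 has ended. The longest Tapbp transcript begins at 33919332, 7 bases past the end of Zbtb22. Phf1 and Cuta overlap over 4090 bases on opposite strands, and Bak1 lies within Ggnbp1 on the opposite strand. The kit keeps strand, but no source used here says whether the counting did.

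The start sites of Daxx, Zbtb22 and Tapbp follow one another on the plus strand, and the results turn on these 3 genes. Their RefSeq promoter windows (GRCm38.p6, plus strand, 250 bases before to 50 after the start site) are therefore shown. They cover chr17:33909195-33909494 for Daxx, chr17:33915926-33916225 for Zbtb22 and chr17:33919326-33919527 for Tapbp. The Tapbp window leaves out its first 98 bases, which belong to Zbtb22. Capitals mark matches on either strand to any of 3 short motifs. The first is the GC box bound by Sp1 family factors, searched as GGGCGG. The second is the CCAAT box, searched by the letters of its name. The third is the core recognised by ETS family factors, searched as CCGGAAG.
Daxx: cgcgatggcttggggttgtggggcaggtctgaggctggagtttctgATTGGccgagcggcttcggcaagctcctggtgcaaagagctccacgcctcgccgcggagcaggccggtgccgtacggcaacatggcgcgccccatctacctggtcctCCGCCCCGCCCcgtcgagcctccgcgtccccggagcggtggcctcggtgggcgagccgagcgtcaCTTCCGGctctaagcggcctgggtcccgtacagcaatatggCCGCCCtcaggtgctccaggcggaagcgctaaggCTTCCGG
Zbtb22: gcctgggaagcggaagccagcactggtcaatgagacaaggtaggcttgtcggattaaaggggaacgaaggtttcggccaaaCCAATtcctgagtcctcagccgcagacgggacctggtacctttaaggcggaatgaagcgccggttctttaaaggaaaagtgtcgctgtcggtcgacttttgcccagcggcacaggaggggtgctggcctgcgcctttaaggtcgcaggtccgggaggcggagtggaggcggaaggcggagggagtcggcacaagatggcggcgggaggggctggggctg
Tapbp: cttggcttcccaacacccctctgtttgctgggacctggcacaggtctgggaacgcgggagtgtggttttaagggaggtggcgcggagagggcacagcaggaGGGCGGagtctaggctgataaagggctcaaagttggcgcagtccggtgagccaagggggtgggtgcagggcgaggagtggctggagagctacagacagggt

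The Daxx window held 3 GC boxes, 1 CCAAT box and 2 ETS cores, with 33 CpG dinucleotides. The Zbtb22 window held 1 CCAAT box and 22 CpG dinucleotides. The Tapbp window held 1 GC box and 8 CpG dinucleotides in 202 bases, against 300 bases for Daxx and Zbtb22. It was set by the RefSeq start site at 33919478, which lies beyond the longest GENCODE transcript's start at 33919332. Most of the Tapbp window therefore lies within that transcript. Over all 32851 RefSeq windows, 35.7% held a GC box, 37.4% a CCAAT box and 8.86% an ETS core.

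The 8 libraries held 7705789 to 10517508 reads over all 11789 genes of the table. Values below are normalized counts, the authors' read counts divided by 1 size factor per library, with SD over n = 4 animals. Differences are on the scale of log2(normalized count + 1), DC minus WT, with SE from limma fitted across all 10468 genes with a mean of at least 10. All 9 listed genes had such a mean. The tissue was pancreas by its markers: Ctrb1, the chymotrypsinogen gene, averaged 944545 ± 210475 in DC and 979153 ± 198583 in WT pancreas. No gene was called between the genotypes at an adjusted p under 0.05 (0% of tested genes), with 302 at an unadjusted p under 0.05 (2.88%). edgeR's quasi-likelihood test also called 0 genes and had 299 at an unadjusted p under 0.05. DESeq2 called 1, Bglap3, and had 219.

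Daxx itself was the lowest-lying value of its locus relative to wild type. It had 26.8, 23.3, 29.2 and 32.5 normalized counts in DC replicates 1 to 4, against 39.7, 58.7, 46.7 and 45.2 in WT replicates 1 to 4. Every DC library was below every WT library, and the DC mean was 58.8% of the WT mean. The log2 difference was -0.74 ± 0.20 (SE), with an exact two-sided permutation p of 0.0286 and a limma adjusted p of 0.9997. The permutation p is the smallest that 4 against 4 animals can give. In bulk tissue, fewer cells with intact Daxx and less RNA per cell cannot be told apart.

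None of the 9 listed genes passed the test over all genes, and 4 lay above and 5 below 0. Their median log2 difference was -0.03, beside -0.01 over all tested genes. In 1 of the 9, Tapbp, the genotypes did not overlap, with DC higher, which was the case for 0.831% of all tested genes. Genes with all DC animals lower made up 1.04%, and none of the 9 was among them. The adjacent genes had 3 values above and 3 below 0, with a median of 0.06. The distant genes had 1 above and 2 below, with a median of -0.14. With 4 animals a group, the median 95% interval of a tested gene reached 0.41 log2 units, or 1.33-fold, to each side.

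**Figure D1:**
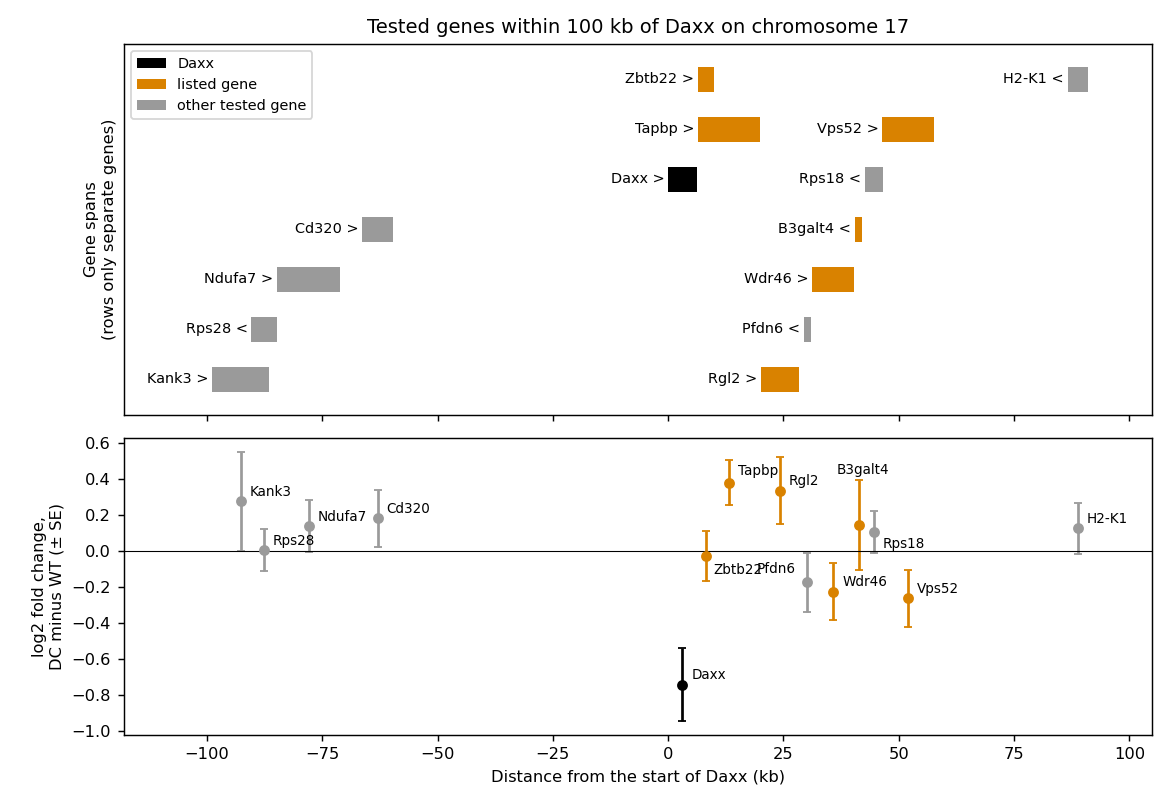
Upper panel, spans of Daxx and the 13 other tested genes within 100 kb, by distance in kb from the start of Daxx (> plus strand, < minus strand; rows only separate genes). Lower panel, log2 fold change of each gene, DC minus WT, with its SE. Daxx is the lowest point at -0.74 and Tapbp the highest at 0.38, with Zbtb22 between them at -0.03.

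Tapbp, the antigen processing gene, had higher values in every DC animal than in any WT animal, but did not pass the test over all genes. It had 182, 181, 221 and 220.5 normalized counts in DC replicates 1 to 4, against 147, 158, 161 and 149 in WT replicates 1 to 4. The lowest DC library stood above the highest WT library, and the DC libraries fell into a pair near 181 and a pair near 221. Means were 200.9 ± 22.8 in DC and 153.6 ± 6.66 in WT pancreas. The log2 difference was 0.38 ± 0.13 (SE), with a 95% interval of 0.11 to 0.65, an exact permutation p of 0.0286 and a limma adjusted p of 0.9997. Of the tested genes, 39 had a smaller unadjusted p than Tapbp, which was 0.00871. These values rest on 176 to 217 reads per DC library and 121 to 168 per WT library.

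**Figure D2:**
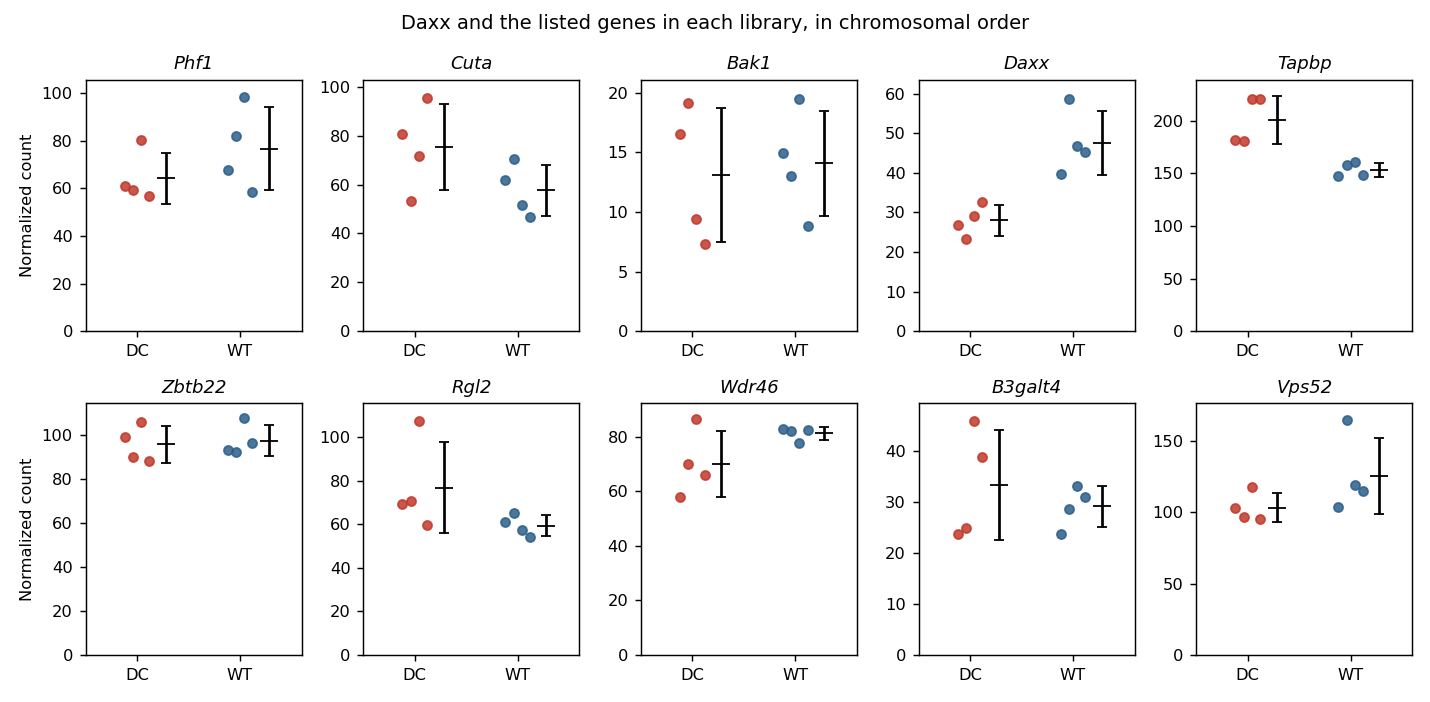
Normalized counts of Daxx and the 9 listed genes in each library, DC left and WT right, with replicates 1 to 4 from left to right within a group and the mean and SD (n = 4) beside them. In Daxx (DC lower) and Tapbp (DC higher) the genotypes do not overlap, and in the other 8 panels they do.

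Zbtb22, a zinc finger gene with a BTB domain that sits inside the annotated span of Tapbp, stood at like levels in both genotypes. It had 99.1, 90.0, 106 and 88.2 normalized counts in DC replicates 1 to 4, against 93.4, 92.6, 108 and 96.5 in WT replicates 1 to 4. The ranges overlapped almost fully. Means were 95.9 ± 8.40 in DC and 97.7 ± 7.16 in WT pancreas. The log2 difference was -0.03 ± 0.14 (SE), with a 95% interval of -0.32 to 0.27 and an exact permutation p of 0.714. With equal library totals the sign turned, to 0.09, where the median of all tested genes moved to 0.11. The within-genotype SD of log2 values, pooled over both genotypes, was 0.11 for Zbtb22 and 0.12 for Tapbp, beside a median of 0.27 over all tested genes. That median was not matched for level: by mean, Zbtb22 stood above 59.7% and Tapbp above 78.3% of tested genes. For Tapbp the spread was also unequal, with an SD of 22.8 normalized counts in DC and 6.66 in WT pancreas.

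Ratios taken within a library depend on how libraries are scaled only through the 1 added to each normalized count, and 3 were compared. The log2 ratio of Tapbp to Zbtb22 was 0.87, 0.999, 1.048 and 1.31 in DC replicates 1 to 4, against 0.65, 0.76, 0.57 and 0.62 in WT replicates 1 to 4. All DC ratios were above all WT ratios, by 0.41 ± 0.10 (SE) on average. The exact permutation p was 0.0286, adjusted over the 3 ratios 0.0429 and over the 2 without Daxx 0.0571. The p was 0.0571 without WT replicate 1, 3 or 4. The ratio of Tapbp to Daxx averaged 2.80 ± 0.10 in DC and 1.68 ± 0.19 in WT pancreas, and could not overlap, since every DC animal was above every WT animal in Tapbp and below in Daxx, so it is a description only. The ratio of Tapbp to Rgl2, the next gene beyond Tapbp, averaged 1.40 ± 0.34 in DC and 1.36 ± 0.11 in WT pancreas (SD, n = 4). That difference of 0.05 ± 0.18 (SE) was within the spread of the animals (exact permutation p = 0.829). Tapbp was known from earlier results to be higher when these ratios were chosen, so they give no independent evidence of its direction.

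**Figure D3:**
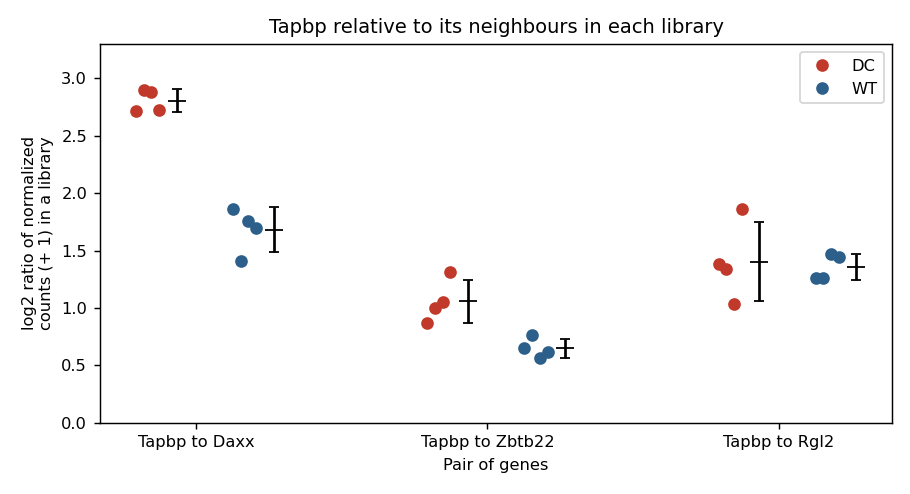
Log2 ratio of the normalized counts (+ 1) of Tapbp to Daxx, Zbtb22 and Rgl2 in each library, DC left and WT right in each pair, with the mean and SD (n = 4). DC and WT do not overlap for Daxx and Zbtb22, and overlap for Rgl2, where DC spans 1.03 to 1.86 and WT 1.26 to 1.47.

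Rgl2, an exchange factor that links Ras to the small GTPase Ral, had a log2 difference of 0.33 ± 0.19 (SE). It had 69.2, 70.8, 107 and 59.8 normalized counts in DC replicates 1 to 4, against 60.8, 65.2, 57.5 and 54.0 in WT replicates 1 to 4. DC replicate 3 stood above the other 7 libraries, and the groups overlapped. Without that library the difference was 0.16. The exact permutation p over all 8 libraries was 0.0857.

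The 2 other plus-strand genes had lower DC means. Wdr46, a WD repeat protein of the nucleolar complex that processes small-subunit ribosomal RNA, had 57.8, 69.97, 86.4 and 66.1 normalized counts in DC replicates 1 to 4, against 82.8, 82.2, 77.9 and 82.3 in WT replicates 1 to 4. In 3 of the 4 DC libraries the value lay below every WT library, and DC replicate 3 lay above every one. The log2 difference was -0.23 ± 0.16 (SE; exact permutation p = 0.143), with -0.14 without DC replicate 1 and -0.33 without DC replicate 3. Vps52, a subunit of the GARP and EARP complexes that tether endosome-derived vesicles, had 103, 96.6, 118 and 95.5 in DC replicates 1 to 4, against 104, 164, 119 and 115 in WT replicates 1 to 4. WT replicate 2 was far above the others, and without it the log2 difference was -0.13, against -0.26 ± 0.16 (SE; exact permutation p = 0.114) over all libraries. The start of Vps52 overlaps 190 bases of Rps18 on the opposite strand.

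B3galt4, a galactosyltransferase that makes the core of complex gangliosides, had a value near 0 and a wide spread. It had 23.7, 25.0, 45.8 and 38.8 normalized counts in DC replicates 1 to 4, against 23.8, 28.7, 33.1 and 31.0 in WT replicates 1 to 4. The WT range lay within the DC range. The log2 difference was 0.14 ± 0.25 (SE), with an exact permutation p of 0.571, and it was -0.02 without DC replicate 3. Its libraries held 22 to 44 reads.

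DC replicate 3 was the highest DC library in 6 of the 6 adjacent genes. In Tapbp it led DC replicate 4 only narrowly, with 212 against 210 reads. In WT the highest library changed from gene to gene: replicate 3 in 3 genes, replicate 2 in 2 and replicate 1 in 1. Over the 13 tested genes within 100 kb of Daxx, leaving Daxx out, the median deviation of DC replicate 3 from each gene's mean over all 8 libraries was 0.20 log2 units. In the other DC libraries it was -0.15, -0.10 and 0.14 for replicates 1, 2 and 4, against -0.13, 0.05, 0.04 and -0.09 in WT replicates 1 to 4. In DC the median deviation was thus below 0 in replicates 1 and 2 and above 0 in replicates 3 and 4. Y-linked reads, given below, divide the DC replicates in the same way. The signs in WT did not follow that division, and none of this was tested. Over the 9952 tested genes of other chromosomes the same value lay within 0.02 of 0 in all 8 libraries. The size factors hold a median over most genes near 0 in every library, so this is no contrast to the genes near Daxx. From 100 kb to 1 Mb the value was 0.08, 0.01, 0.19 and -0.08 in DC replicates 1 to 4. In WT replicates 1 to 4 it was -0.08, 0.19, -0.05 and -0.19 there, so WT libraries shifted as far as DC replicate 3.

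The distant genes were not called either. Phf1, a Tudor domain protein that binds Polycomb repressive complex 2, had 60.9, 59.1, 80.2 and 56.7 normalized counts in DC replicates 1 to 4, against 67.9, 82.2, 98.4 and 58.4 in WT replicates 1 to 4. The groups overlapped, with a log2 difference of -0.24 ± 0.19 (SE; exact permutation p = 0.257), which was -0.11 without WT replicate 3 and -0.36 without WT replicate 4. Cuta, the mammalian relative of a bacterial copper tolerance protein, had 80.5, 53.3, 71.9 and 95.5 in DC replicates 1 to 4, against 61.7, 70.4, 51.6 and 46.9 in WT replicates 1 to 4. In 3 of the 4 DC libraries the value stood above all WT libraries, and the log2 difference was 0.37 ± 0.20 (SE; exact permutation p = 0.143), which was 0.24 without DC replicate 4. These overlapping genes thus had values on opposite sides of 0, neither past the test. Bak1, a pore-forming effector of mitochondrial apoptosis, had the fewest reads, 7 to 23 per library. It had 16.5, 19.2, 9.37 and 7.35 normalized counts in DC replicates 1 to 4, against 15.0, 13.0, 19.5 and 8.85 in WT replicates 1 to 4. At this depth its log2 difference of -0.14 ± 0.38 (SE) has a 95% interval of -0.95 to 0.66.

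Levels between genes were compared per kilobase of merged exons. Tapbp was the highest of the 9 in both genotypes, at 55.4 ± 6.27 normalized counts per kb in DC and 42.3 ± 1.83 in WT pancreas. Zbtb22 came next, at 35.9 ± 3.14 in DC and 36.5 ± 2.68 in WT pancreas, followed by Vps52 at 26.0 ± 2.57 in DC and 31.6 ± 6.71 in WT pancreas, and then Wdr46. The ranges of Tapbp and Zbtb22 over the 4 libraries did not overlap in either genotype. From Vps52 down to Rgl2 each gene overlapped the next in both genotypes, and the order of B3galt4, Cuta and Phf1 differed between them. Bak1 was lowest, at 5.44 ± 2.34 in DC and 5.85 ± 1.83 in WT pancreas, with no overlap with Rgl2. Daxx stood at 8.88 ± 1.23 per kb in DC and 15.1 ± 2.54 in WT pancreas, below the 6 adjacent genes in DC and above Rgl2 alone of them in WT pancreas.

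The labels do not say which library is from which sex, but reads of 4 Y-linked genes split each genotype into 2 and 2. Their mean log2 level was 0 to 0.44 in replicates 1 and 2 of both genotypes and 5.31 to 6.23 in replicates 3 and 4. Tapbp averaged 181 in DC and 152 in WT pancreas among libraries with few Y-linked reads. It averaged 221 in DC and 155 in WT pancreas among those with many. DC was higher in both classes, by 0.25 and 0.51 log2 units, and the difference between the classes was not tested. Daxx was lower in DC in both, with log2 differences of -0.92 and -0.56. The log2 difference of Cuta was -0.01 with few and 0.74 with many Y-linked reads, and that of Bak1 was 0.33 and -0.61, with 2 animals per genotype and class. For B3galt4 it was -0.10 with few and 0.39 with many, and for Zbtb22 0.02 and -0.08. In the same order it was 0.15 and 0.52 for Rgl2, -0.37 and -0.08 for Wdr46, and -0.39 and -0.14 for Vps52. Phf1 had -0.31 and -0.17. Of the adjacent genes, all but Zbtb22 thus had the higher value with many Y-linked reads, which was not tested.

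Other tested genes within 100 kb of Daxx gave no called gene. Pfdn6, a subunit of the prefoldin chaperone that lies between Rgl2 and Wdr46, had 55.7 ± 4.71 normalized counts in DC and 63.1 ± 7.49 in WT pancreas. The ribosomal protein gene Rps18 had 1404 ± 210.7 in DC and 1298 ± 103.9 in WT pancreas, and Rps28 had 846 ± 123 in DC and 837 ± 56.2 in WT. Both have many near-identical pseudogenes. H2-K1, a class I heavy chain gene, had 450.04 ± 84.9 in DC and 407.5 ± 38.1 in WT pancreas. To the left, Cd320 (127 ± 15.4 in DC and 112 ± 20.2 in WT), Ndufa7 (119 ± 11.5 in DC and 109 ± 15.4 in WT) and Kank3 (25.8 ± 10.1 in DC and 20.2 ± 1.65 in WT) also overlapped between genotypes. Of the tested genes next to the distant block, 2 are given, with 51.6 ± 4.91 in DC and 61.7 ± 12.3 in WT pancreas for Bnip1 and 259.7 ± 27.7 in DC and 259.1 ± 34.1 in WT for Itpr3, the inositol trisphosphate receptor of acinar calcium release.

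**Figure D4:**
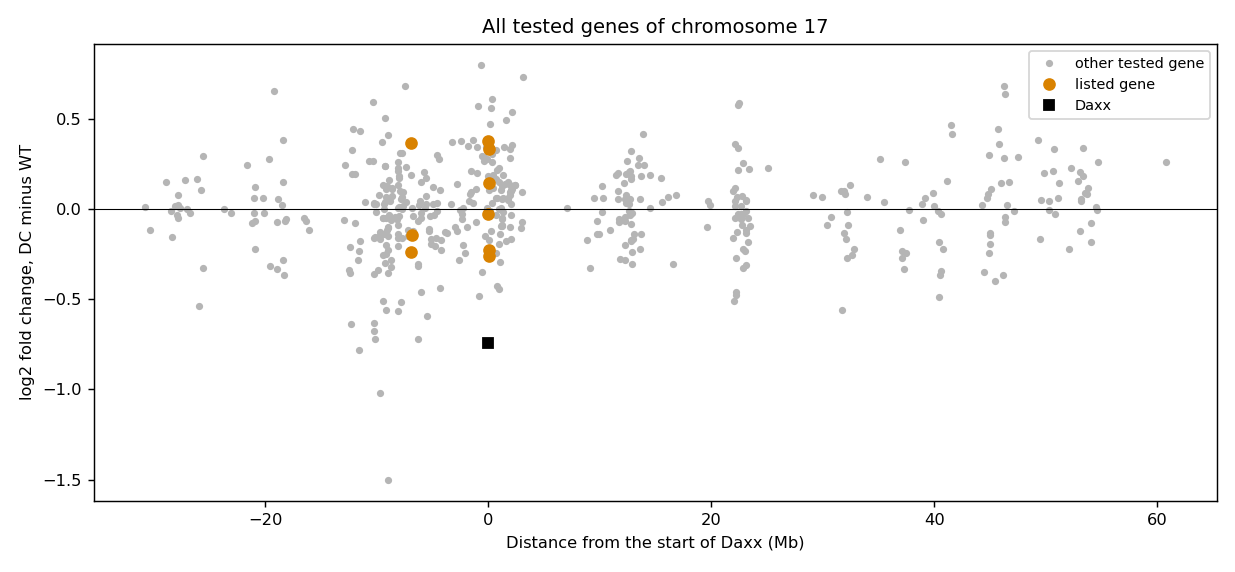
Log2 fold change, DC minus WT, of every tested gene of chromosome 17 by distance in Mb from the start of Daxx. The listed genes sit in 2 groups, 6 beside Daxx and 3 about 6.9 Mb to its left, and Daxx itself is at -0.74.

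By distance along chromosome 17, the medians of genes near Daxx lay above 0, and were not tested. Of the 13 tested within 100 kb, 9 lay above 0, with a median log2 difference of 0.13. Of the 36 from there to 1 Mb, 22 lay above, with a median of 0.13. Between 1 and 10 Mb, where the distant genes lie, 97 of 194 lay above, with a median of 0.00. Beyond 10 Mb the median of 270 genes was 0.01, and that of 9952 genes of other chromosomes was -0.01. The medians near Daxx were no larger than the SD of the library medians within a genotype, which was 0.14 in both of the first 2 bins. That SD describes single libraries and not a difference between groups, so it is no test of the medians near Daxx. Without DC replicate 3 the medians of the first 2 bins were 0.04 and -0.02. Groups without overlap made up 1 of 13 genes within 100 kb, 2 of 36 to 1 Mb and 6 of 194 to 10 Mb, beside 1.87% of all tested genes. The 2 are the zinc finger genes Zfp955b (18.2 ± 6.11 in DC and 9.96 ± 3.002 in WT) and Zfp952 (24.4 ± 4.38 in DC and 16.1 ± 2.75 in WT), named after their values were seen, as are the next. The 6 were all lower in DC: Gfer, Igfals, Stub1, Decr2, AI413582 and Taf11, with Igfals at 30.9 ± 15.4 in DC and 86.0 ± 34.0 in WT pancreas and Decr2 at 51.4 ± 5.02 in DC and 73.7 ± 6.83 in WT pancreas.

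Partners of the listed genes were followed as lists of known complexes and pathways, and none of their tested genes was called. Around Tapbp, 14 of 15 genes of peptide loading and class I processing were tested, with 9 above and 5 below 0 and a median of 0.11. Tap1 and Tap2, the peptide transporter that tapasin binds, had 34.6 ± 9.01 and 65.5 ± 11.9 in DC, against 24.6 ± 12.8 and 54.2 ± 7.34 in WT pancreas. Both are also neighbours of Daxx, at 0.28 and 0.29 Mb from its start, and are counted in the bin to 1 Mb above. Their values are therefore not separate from those of the genes near Daxx. The chaperone gene Calr had 2237 ± 440.6 in DC and 2297 ± 396 in WT pancreas. No gene of this list had groups without overlap.

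Around Vps52, 16 genes of endosome-to-Golgi tethering had 12 values above and 4 below 0, with a median of 0.06. The golgin gene Gcc2 had 88.6 ± 10.5 in DC and 71.0 ± 16.1 in WT pancreas, and the SNARE gene Ykt6 had 245.6 ± 34.3 in DC and 213 ± 15.9 in WT. Around Phf1, 9 genes of Polycomb repressive complex 2 had 4 above and 5 below, with a median of -0.07. Ezh1, a catalytic subunit, had 130.4 ± 15.0 in DC and 149 ± 24.3 in WT pancreas, and the histone-binding subunit Rbbp4 had 206 ± 19.4 in DC and 229 ± 16.2 in WT. Around Bak1, 12 genes of the Bcl2 family and its partners had 5 above and 7 below, with a median of -0.04. The protective member Mcl1 had 412 ± 45.1 in DC and 475.03 ± 86.0 in WT pancreas, and Vdac2, a mitochondrial channel that binds Bak1, had 476 ± 23.5 in DC and 476 ± 78.4 in WT.

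Around Rgl2, 18 genes of Ras and Ral signalling had 7 above and 11 below 0, with a median of -0.04. Rras, a low gene with 6 to 16 reads per library, spanned 6.19 to 11.46 normalized counts in DC and 11.51 to 14.35 in WT pancreas, without overlap by a narrow margin; 1.04% of all tested genes were lower in every DC library. Around Wdr46, 32 genes of the small subunit processome had 11 above and 21 below, with a median of -0.05. Wdr75 had 77.3 ± 27.1 in DC and 100.6 ± 21.9 in WT pancreas, and Nol6 had 211 ± 16.9 in DC and 184 ± 12.2 in WT. Around B3galt4, 7 genes of ganglioside synthesis had 4 above and 3 below, with a median of 0.05. B4galnt1, the enzyme that acts just before B3galt4, had 362 ± 50.5 in DC and 409 ± 73.3 in WT pancreas.

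Around Cuta, 12 genes of copper handling had 5 values above and 7 below 0, with a median of -0.06. In 2 of them DC lay below WT without overlap, which was the case for 1.04% of all tested genes and for 3 genes in all over the 9 partner lists. Sco1, which delivers copper to cytochrome oxidase, had 29.1 ± 5.03 in DC and 43.6 ± 7.68 in WT pancreas, and the copper chaperone Cox17 had 12.4 ± 1.39 in DC and 18.4 ± 3.47 in WT. Around Zbtb22, 34 genes of BTB zinc finger proteins had 19 above and 15 below, with a median of 0.01. Patz1 had 30.3 ± 3.90 in DC and 23.9 ± 7.26 in WT pancreas, and Zbtb16 had 249.7 ± 154.8 in DC and 334 ± 177 in WT. The median over all tested genes was -0.01 throughout.

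Immune cells express antigen processing genes strongly, so their markers are given beside Tapbp; their part in its difference was not tested. Of 13 listed immune markers 7 were tested, 6 above and 1 below 0, with a median of 0.11, and none was called. Their summed level was 439, 802, 583 and 247 normalized counts in DC replicates 1 to 4, against 545, 506, 423 and 297 in WT replicates 1 to 4. Among these markers, H2-Ab1, H2-Aa and H2-Eb1 start 0.35, 0.37 and 0.40 Mb from the start of Daxx. The immune list is therefore not separate from the genes near Daxx. The myeloid marker Itgam and the T and B cell markers Cd3e, Cd3g, Cd79a and Ms4a1 are absent from the deposited table. Of 7 acinar markers tested, 1 lay above and 6 below 0, with a median of -0.11 and sums of 2717003 to 4026104 in DC and 3323746 to 3994567 in WT pancreas. Of 6 islet markers, 1 lay above and 5 below, with a median of -0.40, and none of either list was called. Summed levels of the other marker lists also overlapped between genotypes, at 3332 to 5497 in DC and 3089 to 4855 in WT pancreas for stroma and 443 to 587 in DC and 465 to 548 in WT pancreas for endothelium. Sums were 191 to 226 in DC and 181 to 224 in WT pancreas for ducts, 1544 to 6952 in DC and 1967 to 7173 in WT pancreas for islets, and 59.8 to 242 in DC and 58.4 to 132 in WT pancreas for adipocytes.

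The genes whose log2 values were most like those of Tapbp over the 8 libraries were Sctr (Pearson r = 0.96), Cbx6 (0.96), Zcchc3 (0.95), Phf12 (0.94) and Bglap3 (0.94). All 5 lie on other chromosomes. Cbx6, a Polycomb group protein, had 152 ± 20.2 normalized counts in DC and 107 ± 6.71 in WT pancreas, and Phf12 had 132 ± 10.7 in DC and 111 ± 8.58 in WT. These coefficients were picked as the highest among all tested genes, include the difference between genotypes, and are a description only.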

How the data were processed

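RNA of whole pancreas was sequenced with a stranded total RNA kit, per the labels' protocols. Per the submitters' processing notes, reads were aligned with STAR 2.6.0b to GRCm38 and DESeq2 was used. The deposited values are a signal, gene counts the authors divided by 1 size factor per library. All of them (100%) came out as whole reads within 0.001, giving 7705789 to 10517508 reads per library. Every gene of the deposited table has at least 5 reads in at least 4 libraries. Genes with a mean of at least 10 (10468) were tested on log2(value + 1) with limma 3.58.1 (trend) in R 4.3.3, two-sided, with Benjamini-Hochberg adjustment over all of them; folds on this scale understate changes of low genes. edgeR 4.0.16 and DESeq2 1.42.0 were run on the recovered reads as alternatives. Single genes and ratios also had an exact two-sided permutation test over 70 relabellings. Nothing says that libraries are from separate animals beyond the design text, and p-values measure the spread between these libraries only. Gene positions came from GENCODE M21, matched by gene ID without version, and promoters from RefSeq by symbol (10 of 10). The fit was also run on simulated counts with known changes. That run required recovery only of its largest changes, so it gives no assurance for differences as small as those of the listed genes. The genes and lists were chosen with earlier results of these data known. Genes named are Daxx, the 9 listed genes, tested genes within 100 kb of Daxx, the nearest tested neighbours of the distant genes (1 is not reported here), from each partner list genes with the smallest p or highest mean, and the 5 most like Tapbp.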

Additional observations from a re-analysis of the deposited data

Results flagged for a closer look

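Wdr46 in WT replicate 3 stood apart from the other WT animals, at 77.9 normalized counts against 82.2 to 82.8. In 20 groups of 4 libraries (Daxx and the 9 listed genes in DC and WT) this was the 1 value with such a gap, and chance gives about 1 in 20. The WT values rest on 94, 63, 80 and 93 reads in replicates 1 to 4, and counting error was not weighed in this flag. DC libraries of Wdr46 spanned 57.8 to 86.4.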

How the results depend on the processing

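No listed gene was called under any alternative, with no adjusted p under 0.964. The log2 difference of Tapbp stayed between 0.33 and 0.50 and that of Daxx between -0.82 and -0.62. The number of called genes was 1 with equal library totals, robust moderation, DESeq2 or the Y-linked covariate, and 0 to 1 on leaving out 1 library (1 without DC replicate 2). Equal totals, which moved the median of all tested genes to 0.11, gave 0.094 for Zbtb22, -0.10 for Wdr46, -0.12 for Phf1, -0.14 for Vps52, 0.26 for B3galt4 and -0.023 for Bak1, and medians of 0.25 within 100 kb, 0.25 to 1 Mb, 0.12 at 1 to 10 Mb, 0.13 beyond 10 Mb and 0.11 on other chromosomes. Leaving out 1 library gave -0.078 to 0.022 for Zbtb22, -0.022 to 0.28 for B3galt4 (negative without DC replicate 3) and -0.34 to 0.080 for Bak1 (positive without DC replicate 4 or WT replicate 3). The median to 1 Mb was 0.061 at a minimum mean of 50, and that of the nearest bin was 0.055 when widened to 250 kb. Leaving out 1 library, the ratio difference was 1.03 to 1.18 for Tapbp to Daxx, 0.32 to 0.47 for Tapbp to Zbtb22 and -0.11 to 0.17 for Tapbp to Rgl2 (negative without DC replicate 4). Tapbp to Zbtb22 (0.41) had an adjusted exact permutation p of 0.0571 over 2 ratios, an alternative chosen after seeing the data, and of 0.0857 over 3 ratios without WT replicate 1, 3 or 4. On leaving out 1 library, medians were 0.04 to 0.21 within 100 kb, -0.017 to 0.16 to 1 Mb, -0.03 to 0.02 to 10 Mb, -0.0064 to 0.014 beyond and -0.015 to -0.0020 on other chromosomes. The cause of these shifts was not tested. Daxx, B3galt4 and Bak1 have no value at a minimum mean of 50. No paired analysis was possible because the labels give no replicate numbers shared between the genotypes. Depth limits Bak1 most, at 7 to 23 reads per library.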
